A study of Saccharomyces cerevisiae with 36 samples.

Results

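Budding yeast (Saccharomyces cerevisiae) kept in 2 mM caffeine for 90 min was set against yeast kept in the same dose for 15 min. The members are the 4 arrays whose labels give these doses and times, 2 at 90 min and 2 at 15 min, of 36 arrays in all. On each of them RNA of caffeine-treated cells was hybridised together with RNA of untreated cells. The arrays were matched by dye orientation, and the quantity compared is the log2 ratio of treated over untreated cells at 90 min minus that at 15 min.

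The 36 arrays cover 18 conditions, each with 2 biological replicates in a dye swap. Caffeine was given at 2 or 20 mM, and the wall-binding dyes calcofluor white and congo red at 0.02 or 0.1 mg/ml, each for 5, 15 or 90 min. In replicate 1 the treated RNA carried Cy5, and in replicate 2 it carried Cy3. The groups used here are caffeine 2 mM at 90 min, caffeine 2 mM at 15 min, caffeine 2 mM at 5 min, caffeine 20 mM at 90 and 15 min, and both dyes at 0.02 mg/ml at 90 and 15 min, with 2 arrays each. The labels name neither strain nor medium, and whether 1 untreated culture served several doses, drugs or times is not stated in them.

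Caffeine is a methylxanthine that inhibits the kinase complex TORC1 in yeast. TORC1 promotes ribosome production when nutrients are plentiful, and it holds back genes for the use of poor nitrogen sources and the retrograde response, which adjusts the citrate cycle to the state of the mitochondria. Mutants of the cell wall integrity pathway, a protein kinase C and MAP kinase cascade, are sensitive to caffeine. The hexose transporter genes (HXT) are controlled by glucose through the repressors Rgt1 and Mig1.

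A few facts of the arrays touch every value below. With 2 arrays a condition, their number limits the precision, and each standard error (SE) is that of limma over all 36 arrays, not the spread of the 2 arrays beside it. The spread of the log2 ratios over genes (scaled median absolute deviation) was 0.503 on replicate 1 and 0.199 on replicate 2 at 90 min, against 0.345 and 0.306 at 15 min. It ran from 0.199 to 0.739 over the 36 arrays, so replicate 2 at 90 min was the narrowest of all. Spots at the most frequent value of an array, set to missing, were 4.24% and 2.65% of the named spots at 90 min and 5.11% and 3.01% at 15 min. Duplicate spots of a gene differed by a median of 0.0801 to 0.0996 log2 on these 4 arrays.

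The direction of the ratios is not stated in the files and was taken as treated over untreated. For replicate 1 at 5, 15 and 90 min it is not settled. Over genes, replicate 1 at 15 min correlated at r = −0.375 with replicate 1 at 5 min of the same dose and dye orientation. With replicate 1 at 90 min it correlated at −0.206. Replicate 1 at 90 min and at 5 min correlated at 0.611. With the arrays of its orientation at 20 mM for 5, 15 and 90 min, replicate 1 at 90 min correlated at −0.0981, −0.297 and 0.309. For replicate 1 at 5 min these were −0.14, −0.294 and 0.293. The 2 replicates of a time correlated at −0.266 at 90 min, at −0.0671 at 15 min and at −0.176 at 5 min. Replicate 1 at 15 min correlated at 0.613 and 0.664 with the arrays of its orientation at 20 mM for 5 and 15 min, and the 90 and 15 min arrays of replicate 2 at 0.387. For the 15 genes below and for every list whose median changed sign, the value with replicate 1 at 15 min turned is given. With replicate 1 at 90 min turned, values are given for some genes and for every list whose median changed sign. Whether the arrays or the cells differed was not tested.

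Between 15 and 90 min, limma found 15 of 5360 genes changed (0.28%) at a Benjamini-Hochberg adjusted p below 0.05. The 5 higher ones were 0.0933% of the genes tested and the 10 lower ones 0.187%. The higher genes include CPA1 of arginine synthesis and the ribosome assembly genes NIP7 and YAR1. The lower genes include the hexose transporter family members HXT11, HXT12, HXT13 and GAL2 and the glutamate and aspartate permease gene DIP5. At an unadjusted p below 0.05 there were 1113 genes, and the smallest adjusted p was 0.0204. The median difference over all genes was −0.0068, and single genes ran from −1.95 to 2.28, with 216 beyond 1 in either direction.

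The count depended on the fit. It was 0 without the dye and replicate block (463 genes at an unadjusted p below 0.05), 0 with the 12 caffeine arrays alone (557 unadjusted) and 0 with the 6 arrays of 2 mM alone (370 unadjusted). Leaving out an array leaves 1 at that time, so no count of these fits is given here. The genes called changed with the array left out, and few of the 15 passed without replicate 1 at 90 min. There CPA1 had 1.20 and NIP7 0.92, against 1.53 and 1.08 without replicate 2 at 90 min. Without replicate 1 at 15 min they had 0.99 and 0.92. With the sign of replicate 1 at 15 min turned the count was 1. That gene, LTV1 of 40S subunit assembly, lies outside the rule for named genes and is given because the count is that small. With the sign of replicate 1 at 90 min turned, chosen after seeing the data, it was 9, all lower, with 5 of the 15 among them. The 5 higher genes did not pass there, with 0.17 for CPA1, −0.026 for MNT4, 0.61 for NIP7, 0.42 for SAS3 and 0.285 for YAR1.

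CPA1 (YOR303W, chromosome XV), the small subunit of the carbamoyl phosphate synthetase of arginine synthesis, had log2 ratios of 1.19 and 0.012 in replicates 1 and 2 at 90 min, against −0.68 and −0.84 at 15 min. Both 90 min arrays lay above both 15 min arrays, and the 90 min arrays differed from each other by more than 1. CPA1 rose by 1.36 ± 0.24 (SE), a 2.57-fold difference, with a limma adjusted p of 0.0204. It was 0.68 with the sign of replicate 1 at 15 min turned, and did not pass there.

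NIP7 (YPL211W, chromosome XVI), a nucleolar protein of 60S subunit assembly, had 0.39 and 0.0035 at 90 min, against −0.76 and −0.84 at 15 min. Its 15 min arrays agreed closely and were low, while the 90 min arrays lay at or above the untreated level. NIP7 rose by 0.998 ± 0.19, 2.00-fold, with a limma adjusted p of 0.0204, and was 0.24 with replicate 1 at 15 min turned (limma adjusted p = 0.819). YAR1 (YPL239W, chromosome XVI), a chaperone of the 40S protein Rps3, had 0.66 and 0.19 at 90 min, against −0.56 and −0.49 at 15 min. It rose by 0.95 ± 0.17, 1.93-fold (limma adjusted p = 0.0204), and again no 90 min array overlapped a 15 min array. Its difference was 0.39 with replicate 1 at 15 min turned (limma adjusted p = 0.491).

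The other higher genes were MNT4 and SAS3. MNT4 (YNR059W, chromosome XIV), a putative mannosyltransferase, had 1.32 and 0.29 at 90 min, against −0.21 and −0.76 at 15 min, and rose by 1.29 ± 0.24 (limma adjusted p = 0.0204). SAS3 (YBL052C, chromosome II), the catalytic subunit of the NuA3 histone acetyltransferase, had 0.57 and 0.31 at 90 min, against −0.48 and −0.61 at 15 min, and rose by 0.98 ± 0.20 (limma adjusted p = 0.0259). Both genes were below the untreated level on both 15 min arrays and above it on both 90 min arrays. The 2 spots of SAS3 read −1.17 and −0.052 on replicate 2 at 15 min, and the gene was not tested where spots that disagree were left out. With replicate 1 at 15 min turned, MNT4 had 1.08 and SAS3 0.50, and neither passed (limma adjusted p = 0.176 and 0.41).

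The next 5 genes in the upward direction did not pass, each with a limma adjusted p of 0.0565. They were PRP8 of the U5 splicing particle (1.16), FAP1, a protein that binds the rapamycin target Fpr1 (0.83), RPA43 of RNA polymerase I (0.74), HSH49 of the splicing factor SF3b (0.69) and YOR342C (0.69). In RPA43 the ratios were 0.29 and −0.016 at 90 min, against −0.49 and −0.72 at 15 min.

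**Figure D1:**
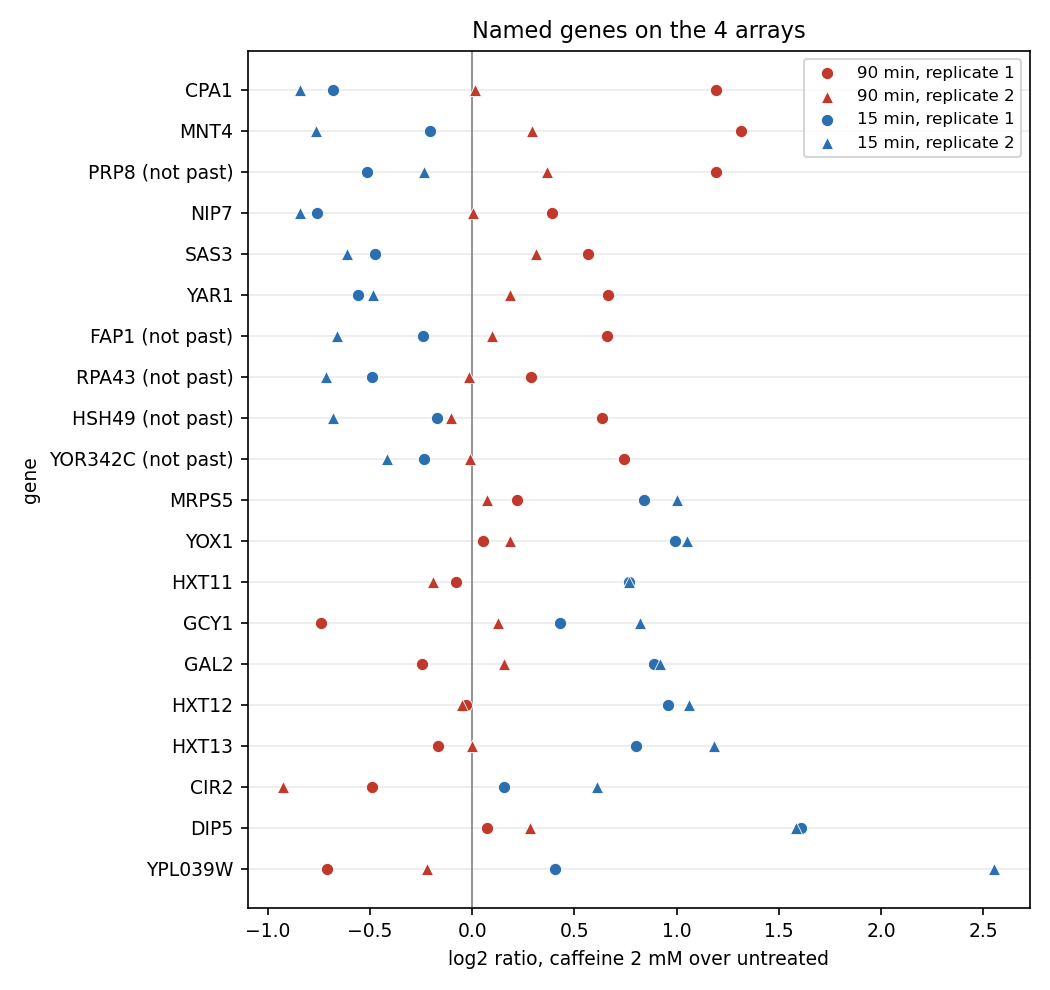
Log2 ratio of caffeine 2 mM over untreated cells (x axis) for 20 named genes (y axis), with 1 point for each array at 90 min (red) and 15 min (blue), circles for replicate 1 and triangles for replicate 2. The 5 genes marked as not past had an adjusted p of 0.0565. In each gene the red points lie to 1 side of the blue points, and the blue points lie below 0 in the upper 10 genes and above 0 in the lower 10.

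Among the lower genes, 4 belonged to the hexose transporter family. GAL2 (YLR081W, chromosome XII), the galactose permease, had −0.24 and 0.16 at 90 min, against 0.89 and 0.92 at 15 min. HXT13 (YEL069C, chromosome V), a transporter of hexoses and polyols, had −0.17 and −0.00022 at 90 min, against 0.80 and 1.18 at 15 min. HXT12 (YIL170W, chromosome IX) had −0.030 and −0.051 at 90 min, against 0.96 and 1.06 at 15 min. In all 3 genes both 15 min arrays lay above the untreated level and the 90 min arrays lay near it, with no overlap. HXT11 (YOL156W, chromosome XV) showed the same order, with −0.082 and −0.19 at 90 min, against 0.77 and 0.77 at 15 min. GAL2 fell by 0.95 ± 0.16 (1.93-fold) and HXT13 by 1.08 ± 0.20 (2.11-fold), each with a limma adjusted p of 0.0204. HXT12 fell by 1.05 ± 0.19 (limma adjusted p = 0.0204) and HXT11 by 0.90 ± 0.18 (limma adjusted p = 0.0256). These genes are close in sequence, so signal shared between their spots cannot be told apart from separate changes. With the sign of replicate 1 at 15 min turned, the differences were −0.059 for GAL2, −0.27 for HXT13, −0.093 for HXT12 and −0.14 for HXT11, and none passed.

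DIP5 (YPL265W, chromosome XVI), the permease for glutamate and aspartate, had 0.073 and 0.28 at 90 min, against 1.61 and 1.58 at 15 min. Both 15 min arrays were high and agreed closely, and the 90 min arrays were close to the untreated level. DIP5 fell by 1.42 ± 0.28, 2.67-fold (limma adjusted p = 0.0246), and with replicate 1 at 15 min turned the difference was 0.19.

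YOX1 (YML027W, chromosome XIII), a homeodomain repressor of genes at the M to G1 boundary of the cell cycle, had 0.053 and 0.19 at 90 min, against 0.99 and 1.05 at 15 min. It fell by 0.90 ± 0.17 (limma adjusted p = 0.0204). MRPS5 (YBR251W, chromosome II), of the small mitochondrial ribosomal subunit, had 0.22 and 0.072 at 90 min, against 0.84 and 1.004 at 15 min, and fell by 0.78 ± 0.16 (limma adjusted p = 0.0354). In both genes the replicates were close at each time and the times did not overlap. Turning replicate 1 at 15 min gave 0.090 for YOX1 and 0.062 for MRPS5.

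Of the remaining lower genes, GCY1 (YOR120W, chromosome XV), a glycerol dehydrogenase of the aldo-keto reductase family, had −0.74 and 0.13 at 90 min, against 0.43 and 0.82 at 15 min. It fell by 0.93 ± 0.18 (limma adjusted p = 0.0204). CIR2 (YOR356W, chromosome XV), a putative mitochondrial electron transfer flavoprotein dehydrogenase, had −0.49 and −0.92 at 90 min, against 0.16 and 0.61 at 15 min, and fell by 1.09 ± 0.22 (limma adjusted p = 0.0258). YPL039W (chromosome XVI), which has no gene name in the files, had −0.71 and −0.22 at 90 min, against 0.40 and 2.55 at 15 min, and fell by 1.95 ± 0.38 (limma adjusted p = 0.0246). CIR2 and YPL039W each rest on spots that disagree. The spots read −2.08 and 0.23 for CIR2 on replicate 2 at 90 min, and 0.12 and 4.99 for YPL039W on replicate 2 at 15 min, and neither gene was tested where such spots were left out. With replicate 1 at 15 min turned, the differences were −0.50 for GCY1, −0.93 for CIR2 and −1.54 for YPL039W, and none passed (limma adjusted p = 0.339, 0.176 and 0.254).

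All 15 genes had the same sign in both dye orientations and no overlap between their 90 and 15 min arrays. Over all genes tested, 37.3% had no such overlap, 18.3% with the 90 min arrays higher and 19.0% with them lower. Between the dye orientations the difference correlated at r = 0.401 over the 5360 genes, which share 4 arrays, and 65.5% of them had the same sign. The difference spread wider in replicate 1 (SD 0.729) than in replicate 2 (SD 0.337).

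**Figure D2:**
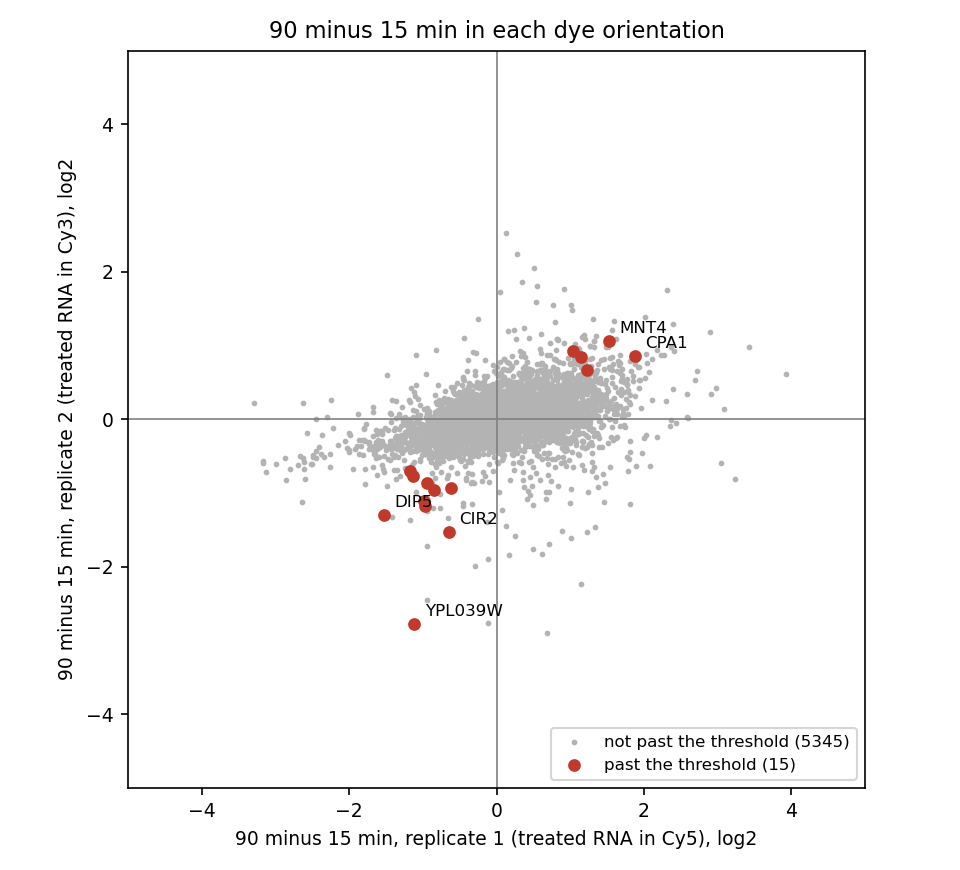
Difference in log2 ratio, 90 minus 15 min of caffeine 2 mM, in replicate 2 (y axis, treated RNA in Cy3) against replicate 1 (x axis, treated RNA in Cy5), 1 point per gene, with the 15 genes past the threshold in red and the other 5345 in grey. The cloud is wider along replicate 1, and the red points fall in the 2 quadrants where both replicates have the same sign.

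The level of each time was tested separately. At 90 min, 0 of 5380 genes (0.0%) differed between treated and untreated cells by limma, with 579 at an unadjusted p below 0.05 and a smallest adjusted p of 0.242. The count was 35 when replicate 2 was left out and 11 when replicate 1 was. At 15 min, 29 of 5366 genes (0.54%) passed, 23 higher (0.429%) and 6 lower (0.112%). That count was 11 without the block, 0 with the 12 caffeine arrays alone (249 unadjusted), 0 with replicate 1 at 15 min turned (590 unadjusted), and 18 without either 15 min array. Without centring it was 21 higher and 2 lower. The difference between times is built from these same arrays, so the levels and differences of a gene are given side by side and are not separate evidence.

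The highest levels at 15 min were those of the citrate synthase genes. CIT2, the peroxisomal enzyme and a standard readout of the retrograde response, had 0.94 and 0.61 at 90 min, against 2.12 and 1.97 at 15 min. Its 15 min level was 2.04 ± 0.20 (limma adjusted p = 6.744e-06), and its difference between times was −1.27 ± 0.28, with a limma adjusted p of 0.0565. CIT1, the mitochondrial enzyme, had 0.95 and 0.29 at 90 min, against 1.60 and 1.63 at 15 min, and a difference of −0.997 (limma adjusted p = 0.0776). PYC1, a pyruvate carboxylase that feeds the citrate cycle, had 0.28 and 0.11 at 90 min, against 0.93 and 0.64 at 15 min. All 3 genes passed at 15 min, had higher values on both 15 min arrays than on both 90 min arrays, and missed the threshold for the difference.

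The hexokinase gene HXK1 had −0.14 and 0.077 at 90 min, against 0.81 and 1.32 at 15 min. Its 15 min level passed (1.06, limma adjusted p = 0.00233), and its difference of −1.10 had a limma adjusted p of 0.0565. Nitrogen genes with the same pattern were GLN1, glutamine synthetase (−0.097 and 0.0075 at 90 min, against 0.79 and 0.74 at 15 min), and CAR1, arginase (−0.39 and −0.025 at 90 min, against 0.44 and 0.77 at 15 min). Both passed at 15 min, and both differences, −0.81 each, had a limma adjusted p of 0.0565. ARO10, a decarboxylase of aromatic amino acid breakdown, had 0.065 and −0.011 at 90 min, against 0.47 and 0.78 at 15 min.

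Of the 6 genes below the untreated level at 15 min, NOP2, an rRNA methyltransferase of the 60S subunit, was the lowest at −1.07 (limma adjusted p = 0.0234). It had 0.62 and −0.076 at 90 min, against −0.69 and −1.44 at 15 min, a difference of 1.34 ± 0.31 with a limma adjusted p of 0.0589. The other 5 were AVT6, a vacuolar amino acid exporter (−1.03, from −0.10 and −1.95), NIP7, CPA1, RPA43 and YAR1.

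At 5 min, 274 of 5316 genes (5.15%) differed between treated and untreated cells, 166 higher (3.12%) and 108 lower (2.03%). The direction of replicate 1 at 5 min is not settled, and this count was not tested with that array turned. The 5 min values below carry the same limit. DIP5 had 0.95 and 1.11 at 5 min, 1.61 and 1.58 at 15 min and 0.073 and 0.28 at 90 min. CIT2 had 2.26 and 1.14 at 5 min, 2.12 and 1.97 at 15 min and 0.94 and 0.61 at 90 min. These genes were above the untreated level at 5 and 15 min in both replicates. HXT13 had −0.14 and 0.25 at 5 min and GAL2 0.37 and 0.48, so both were higher at 15 min than at either other time. CPA1 had 1.15 and −0.23 at 5 min, and NOP2 0.54 and −0.85, so the replicates disagreed in sign at that time. Between 90 and 5 min, 13 of 5305 genes (0.245%) passed, 10 higher (0.189%) and 3 lower (0.0566%).

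**Figure D3:**
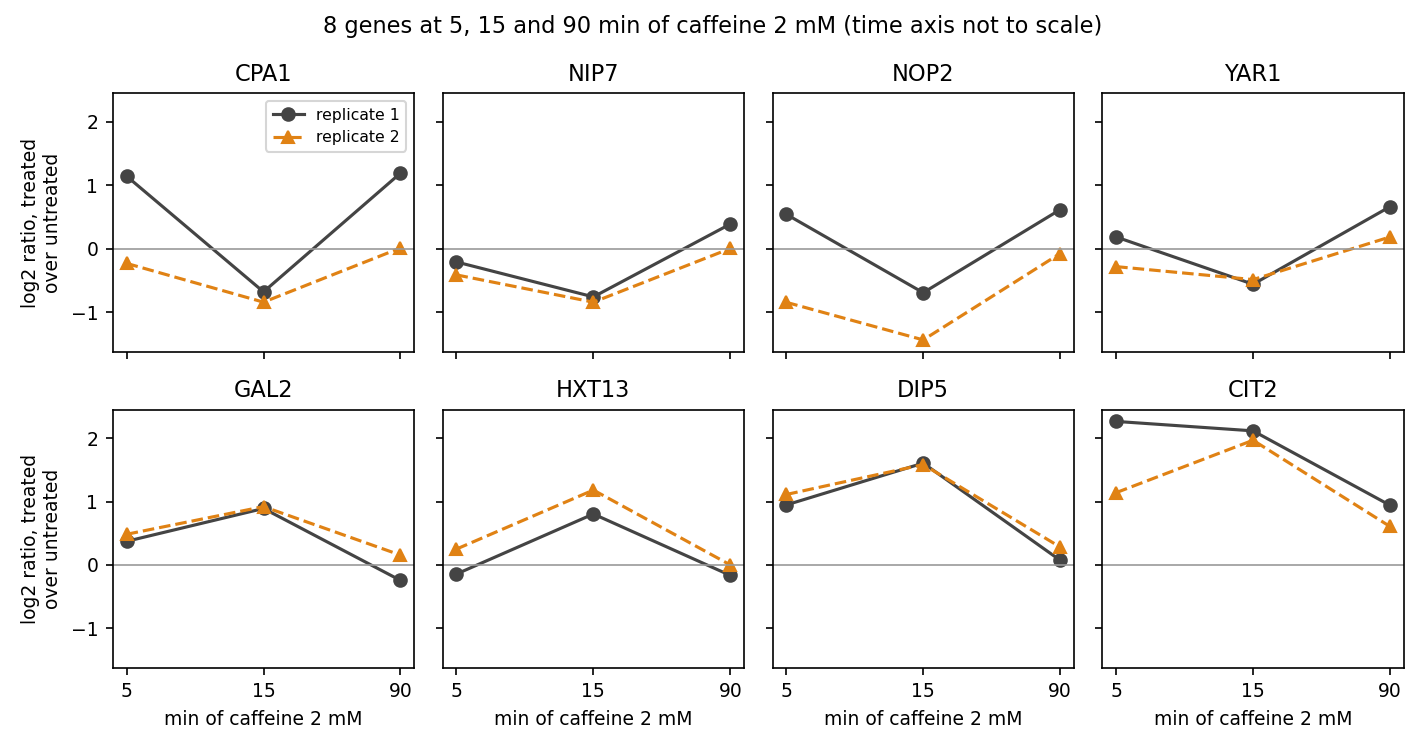
Log2 ratio of caffeine 2 mM over untreated cells (y axis) at 5, 15 and 90 min (x axis, not to scale) for 8 genes chosen after their values were seen, with a line for each replicate. CPA1, NIP7, NOP2 and YAR1 were lowest at 15 min in both replicates, GAL2 and HXT13 were highest there, and DIP5 and CIT2 were lowest at 90 min.

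Gene lists were described by counts and medians. Of 40 lists, 7 held a gene past the threshold. Over all genes tested, 10.43% were higher and 10.34% lower at an unadjusted p below 0.05, which is the background for the list counts that follow. The list medians ran the same way in both dye orientations in 28 of 40 lists.

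The hexose transporter list, 17 transporter genes with the glucose sensors and regulators, had the lowest median. Of its 23 genes tested, 3 fell and 0 rose, and 10 were lower and 0 higher at an unadjusted p below 0.05. Its median difference was −0.42, with −0.38 in replicate 1 and −0.30 in replicate 2, against −0.0068 over all genes. HXT7 (0.0079 and −0.094 at 90 min, against 0.92 and 0.73 at 15 min) and HXT2 (0.15 and −0.32, against 0.91 and 0.39) are the main high-affinity glucose transporters on it and did not pass. HXT5, a transporter linked to slow growth, went the other way, with 0.41 and 0.14 at 90 min, against −1.03 and −0.042 at 15 min (difference 0.81, limma adjusted p = 0.261). With the sign of replicate 1 at 15 min turned the list median was 0.055, and with the sign of replicate 1 at 90 min turned, an alternative chosen after seeing the data, it was −0.57.

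The retrograde response and citrate cycle list, 29 genes, had a median of −0.35, with 0 past the threshold and 9 lower and 1 higher at an unadjusted p below 0.05. Its replicates gave −0.47 and −0.11. The enzyme genes CIT2 and CIT1 were lowest, while FUM1, fumarase, stood at 0.79 with a limma adjusted p of 0.202. The trehalose and glycogen list, 18 genes, had a median of −0.33, with 9 lower and 0 higher unadjusted. GSY2, a glycogen synthase, had −0.61 and 0.098 at 90 min, against 0.25 and 0.57 at 15 min. With replicate 1 at 15 min turned, these medians were 0.0087 and −0.17. With replicate 1 at 90 min turned they were 0.045 and −0.086.

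Respiratory chain and ATP synthase genes had a median of −0.20 over 39 genes, with 8 lower and 1 higher unadjusted. COX4, of cytochrome oxidase, had −0.64 and 0.029 at 90 min, against 0.49 and 0.61 at 15 min, and ATP7, of ATP synthase, −0.42 and −0.030, against 0.40 and 0.35. Each missed the threshold with a limma adjusted p of 0.0565. The general stress list (median −0.19, 44 genes) held GCY1, the amino acid permeases (−0.18, 20 genes) held DIP5, and the nitrogen catabolite repressed genes (−0.15, 30 genes) held none past the threshold, with 7 lower and 2 higher unadjusted. The medians of the respiratory and general stress lists were 0.0097 and 0.00052 with replicate 1 at 15 min turned.

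Of the 4 growth lists, 3 had a median above 0, and the translation initiation and elongation factors had −0.041 over 35 genes, with 6 higher and 2 lower unadjusted. Subunits of RNA polymerases I and III had a median of 0.33 over 21 genes, with 5 higher and 0 lower unadjusted, and 0.49 and 0.21 in the replicates. The cytosolic ribosomal proteins had a median of 0.30 over 125 genes, with 0 past the threshold and 45 higher and 0 lower unadjusted. That median came from replicate 1, where it was 0.48, against 0.054 in replicate 2. The median ratio of the ribosomal proteins was 0.70 and −0.28 at 90 min, against 0.22 and −0.36 at 15 min, so the replicates differed in sign at both times. In 4 of the 125 genes (3.2%) both 90 min arrays lay above both 15 min arrays, and in 4 (3.2%) below. Over all genes tested these shares were 18.3% and 19.0%. The ribosome biogenesis list had a median of 0.15 over 115 genes, with NIP7 past the threshold and 25 higher and 7 lower unadjusted, and 0.10 and 0.14 in the replicates. With the sign of replicate 1 at 15 min turned, the medians were 0.11 for the polymerases, 0.48 for the ribosomal proteins, 0.087 for ribosome biogenesis and 0.044 for the translation factors. With replicate 1 at 90 min turned instead they were 0.11, −0.41, 0.10 and −0.029 in that order.

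Among the amino acid synthesis genes under Gcn4, 1 of 55 rose, CPA1, and the median was 0.14. Heat shock chaperones (median 0.24, 30 genes), the calcineurin pathway (0.24, 15 genes) and glucan and chitin synthesis (0.13, 22 genes) held none past the threshold. The cell wall integrity sensors and kinases had a median of 0.075 over 24 genes and the wall proteins and integrity outputs −0.13 over 39 genes, with 0 past the threshold in either list. The wall protein list had 0.22 with replicate 1 at 15 min turned. With replicate 1 at 90 min turned, medians changed sign to −0.029 for heat shock chaperones, −0.054 for the calcineurin pathway and −0.074 for glucan and chitin synthesis. They also did for the genes under Gcn4 (−0.028) and the wall integrity sensors and kinases (−0.0089). PKC1, the kinase at the head of the cascade, had −0.996 and 0.39 at 90 min, against 0.26 and 0.94 at 15 min, so the 90 min arrays disagreed in sign. The TORC1 list had a median of −0.049 over 31 genes, and 0.11 with replicate 1 at 90 min turned. On it SCH9, a kinase acting below TORC1, had −1.72 and 0.0022 at 90 min, against 0.072 and 0.68 at 15 min. SCH9 did not pass (limma adjusted p = 0.124).

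In the other lists 2 genes passed the threshold, MRPS5 among 65 mitochondrial ribosomal proteins (median 0.0016) and YOX1 among 26 genes of the G1 and S phases (−0.058). Medians above 0 were those of the zinc regulon (0.21, 11 genes), glycolysis and fermentation (0.18, 24 genes), core histones (0.18, 10 genes), multidrug transporters (0.13, 25 genes), the phosphate regulon (0.12, 20 genes), sulfate assimilation (0.11, 29 genes) and aromatic and branched amino acid breakdown (0.11, 15 genes). The last of these and the histones had medians of −0.11 and −0.037 with arrays scaled to one spread, and both of them, glycolysis and sulfate assimilation had different signs in the replicates. The iron regulon had a median of −0.16 over 30 genes, with 6 lower and 0 higher unadjusted. The remaining lists lay between −0.082, for peroxisomes and fatty acid breakdown, and 0.051, for the mating response. Among them, turning replicate 1 at 90 min changed the sign to −0.13 for the proteasome, −0.10 for fatty acid synthesis and −0.048 for mitosis. It gave 0.046 for autophagy, 0.018 for DNA damage, 0.017 for peroxisomes and 0.0071 for oxidative stress. With replicate 1 at 15 min turned, medians changed sign to 0.018 for the iron regulon, −0.091 for sulfate assimilation, 0.030 for G1 and S phase genes, 0.011 for oxidative stress genes, 0.055 for purine synthesis, −0.10 for the mating response and 0.22 for ergosterol synthesis. With replicate 1 at 90 min turned, they changed sign to −0.49 for aromatic and branched amino acid breakdown, −0.47 for histones and −0.44 for glycolysis. The zinc regulon then had −0.074, the phosphate regulon −0.071, multidrug transporters −0.022 and G1 and S phase genes 0.032.

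Within the lipid lists single genes were far from 0 on 1 array of a pair. ERG20, the farnesyl pyrophosphate synthase of ergosterol synthesis, had 2.44 and −0.085 at 90 min, against −0.45 and −1.27 at 15 min. Its replicates ordered the times alike but differed in size, and its difference of 2.04 had a limma adjusted p of 0.128. The ergosterol list had a median of −0.014 over 27 genes, with 6 higher and 3 lower unadjusted.

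**Figure D4:**
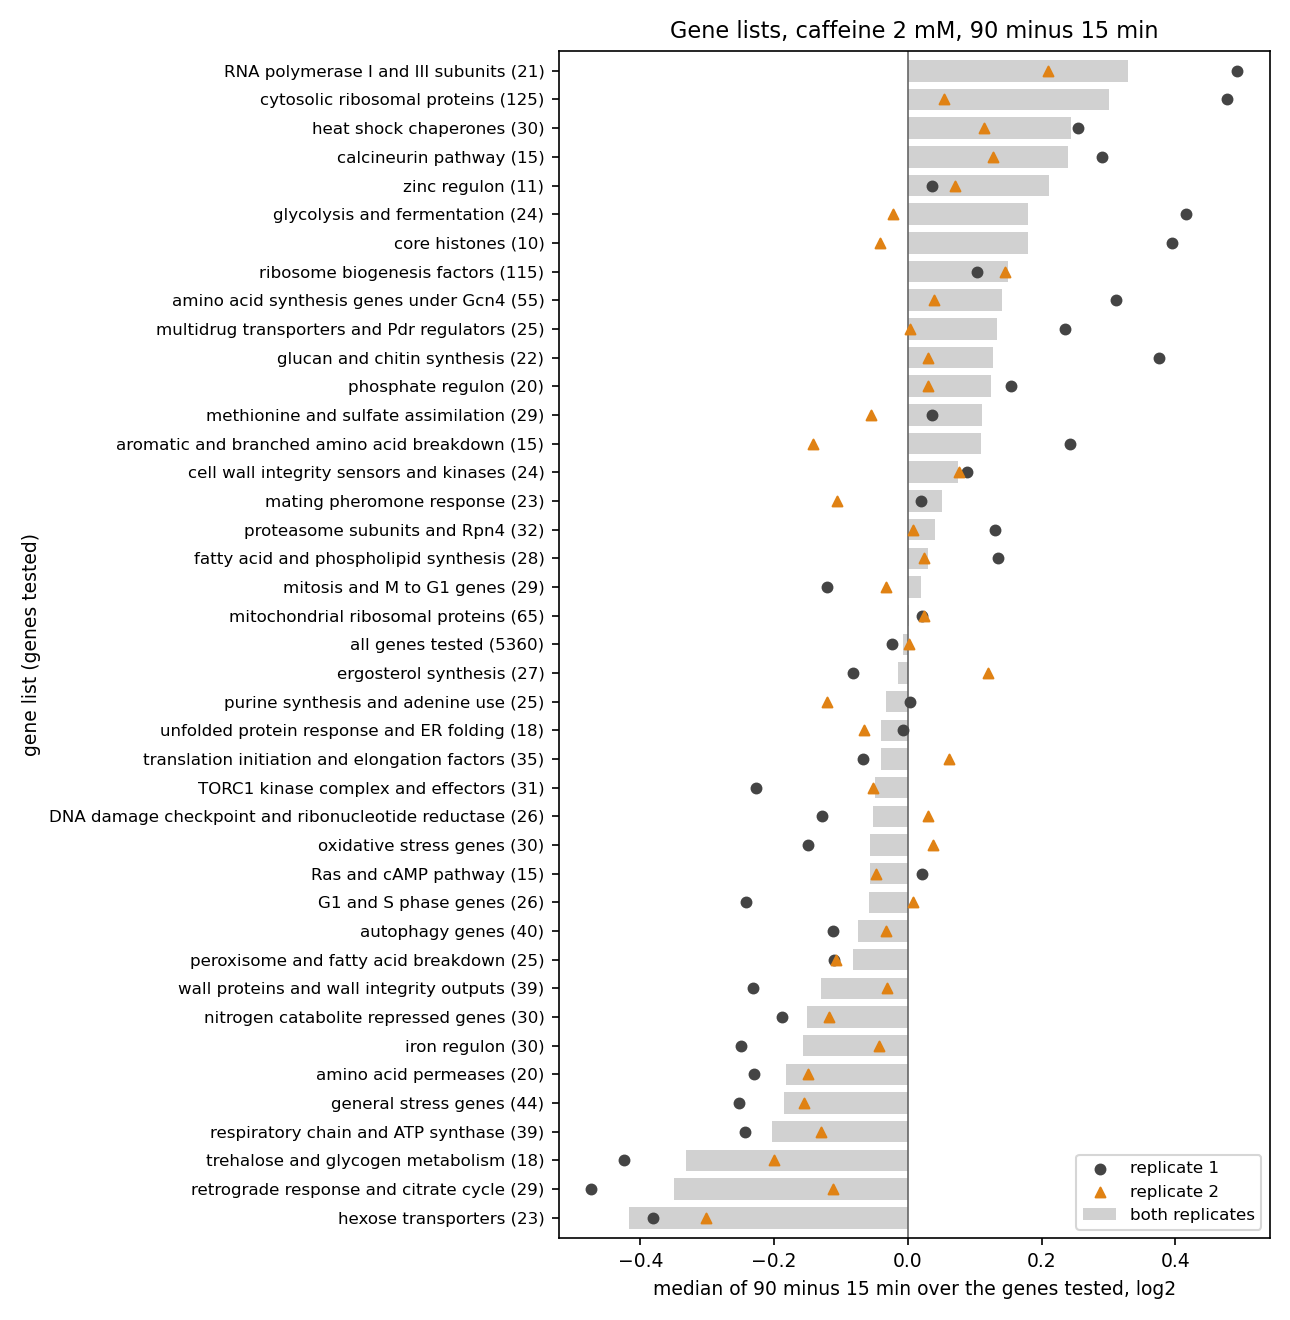
Median difference in log2 ratio, 90 minus 15 min of caffeine 2 mM (x axis), over the tested genes of 40 gene lists and over all genes (y axis, number of genes tested in brackets). Bars give both replicates together and points each replicate. The hexose transporters lie lowest at −0.42 and the RNA polymerase I and III subunits highest at 0.33, and for the ribosomal proteins the point of replicate 2 lies near 0.

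The time change at 2 mM was then set against that at 20 mM. At 20 mM, 1868 of 5202 genes (35.9%) changed between 15 and 90 min. The change differed between the doses in 322 of 5188 genes (6.21%) by limma, 81 with a higher value at 2 mM (1.56%) and 241 with a lower one (4.65%). The counts were 79 without the block, 2 with arrays scaled to one spread, 3 with the 12 caffeine arrays alone and 625 with replicate 1 at 15 min and 2 mM turned. They were 177 without replicate 2 at 90 min of 2 mM, 130 without replicate 2 at 15 min of 2 mM, and 184 without replicate 1 at 15 min of 20 mM, an array of which 1 channel is labelled with another time. The 2 mM arrays enter both this comparison and the time change at 2 mM, so the values are given side by side. Of the genes changed at 2 mM, NIP7, HXT11, HXT12, HXT13 and GAL2 passed here, and MRPS5 could not be tested.

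The estimates of NIP7 had opposite signs at the 2 doses. Its difference was 0.998 ± 0.19 at 2 mM and −1.03 ± 0.19 at 20 mM, where the arrays read −2.43 and −2.50 at 90 min, against −1.41 and −1.48 at 15 min. The gap of 2.02 ± 0.26 had a limma adjusted p of 1.13e-04. It passed also with the caffeine arrays alone, but not with arrays scaled to one spread, where only OPI3 and PYC1 did. With replicate 1 at 15 min of 2 mM turned, the difference of NIP7 at 2 mM was 0.24 (limma adjusted p = 0.819), so its rise there is not settled. RPA43 of RNA polymerase I ran alike, with 0.74 at 2 mM and −1.01 at 20 mM, and a gap of 1.75 (limma adjusted p = 1.93e-04). The highest gaps were those of NAN1 (2.89 ± 0.63), RPA135 (2.63 ± 0.67), UTP14 (2.43 ± 0.47) and NOC3 (2.29 ± 0.59), all genes of ribosome production, and of GOT1 (2.65 ± 0.74), a Golgi transport gene whose 15 min arrays at 20 mM read 4.10 and 0.39. None of these 5 passed at 2 mM alone.

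GAL2, HXT11, HXT12 and HXT13 fell at both doses and more at 20 mM. GAL2 had a difference of −0.95 at 2 mM and −2.38 ± 0.16 at 20 mM, where its arrays read −0.086 and −0.46 at 90 min, against 2.23 and 1.98 at 15 min. The gap was 1.43 ± 0.22 for GAL2, 1.54 for HXT12, 1.29 for HXT11 and 1.28 for HXT13, with limma adjusted p of 5.79e-04, 0.00154, 0.00335 and 0.0098. On the hexose transporter list, 16 of 23 genes fell at 20 mM (17.9% of all genes did) and HXT5 rose by 1.47, and the median was −1.15. Between the doses 8 of the 23 differed, each with the higher value at 2 mM, as 1.56% of all genes tested did. With arrays scaled to one spread only OPI3 and PYC1 passed, and neither is on this list.

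DIP5 did not differ detectably between the doses. Its difference was −1.42 at 2 mM and −1.22 at 20 mM, a gap of −0.20 with a 95% interval of −1.01 to 0.61, and at 20 mM it stayed above the untreated level at 90 min (1.81 and 1.49, against 3.38 and 2.36 at 15 min). CPA1 rose by 1.36 at 2 mM and by 2.44 at 20 mM, and YOX1 had −0.90 at 2 mM and −0.13 at 20 mM. These gaps missed the threshold (limma adjusted p = 0.0592 and 0.0599), with intervals of −1.77 to −0.38 and −1.28 to −0.27.

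Genes with the lowest gaps rose at 20 mM and did not pass at 2 mM. HSP12, a small membrane-associated stress protein, had −0.15 and −0.036 at 90 min of 2 mM, against −0.26 and 0.28 at 15 min of 2 mM. At 20 mM it read 3.51 and 3.66 at 90 min, against 0.32 and 0.37 at 15 min. Its gap was −3.34 ± 0.35 (limma adjusted p = 1.43e-05). NQM1, a transaldolase (−4.60 ± 0.89), MSW1, a mitochondrial tryptophan tRNA synthetase (−3.74 ± 0.58), and APE1, a vacuolar aminopeptidase (−3.35 ± 0.80), also had low gaps. At 15 min of 20 mM, NQM1 (−2.93 and −0.64) and MSW1 (−2.33 and −1.93) were below the untreated level, unlike HSP12. Their differences at 2 mM changed sign between the replicates (2.17 and −0.24 for NQM1, 1.25 and −0.14 for MSW1). TUS1, an exchange factor for Rho1 in the wall integrity pathway, had a gap of −3.65 ± 1.04, and its 90 min arrays at 2 mM read −3.70 and 0.18. CIT2, CIT1 and PYC1 also differed, with 0.52, 0.96 and 1.503 at 20 mM and gaps of −1.79, −1.95 and −2.09.

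**Figure D5:**
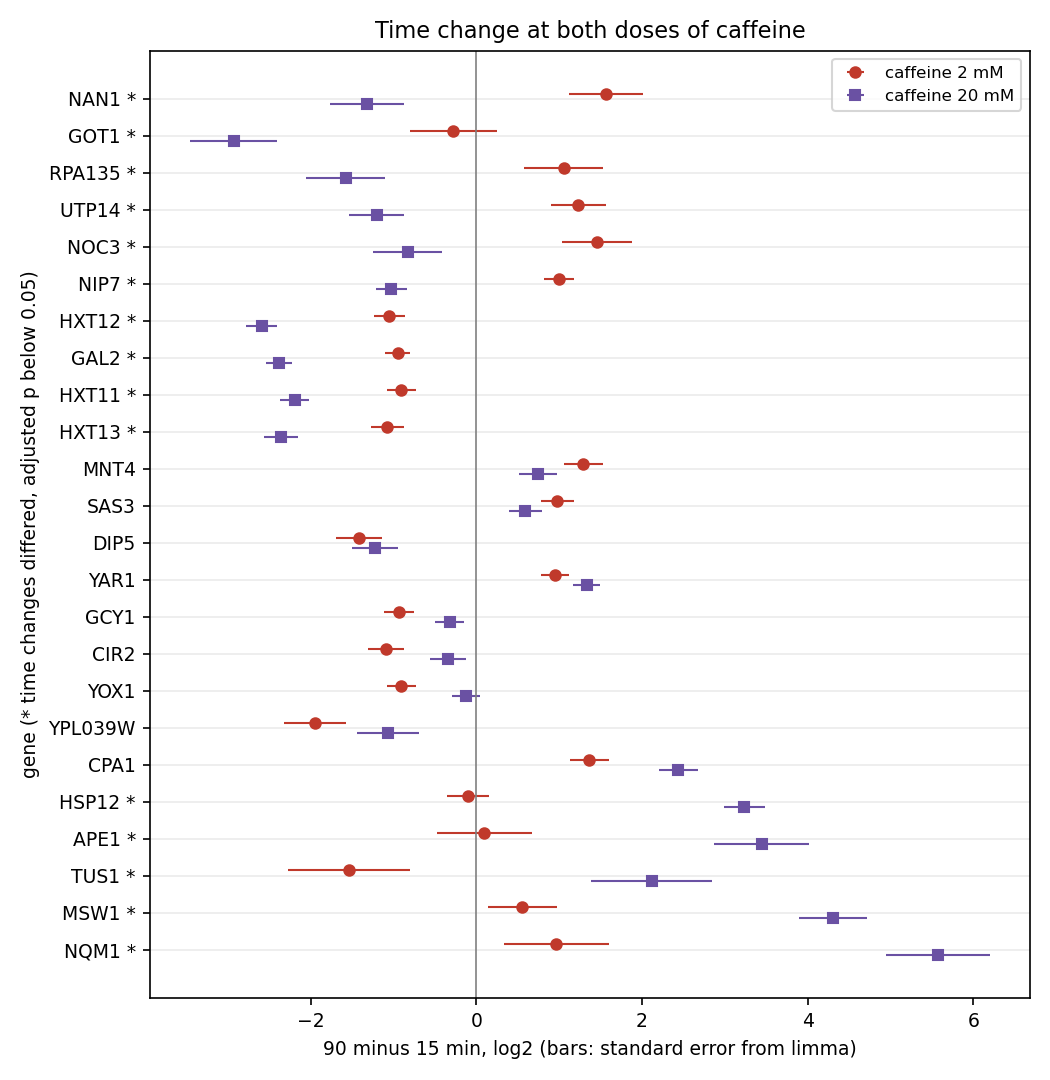
Difference in log2 ratio, 90 minus 15 min (x axis), at caffeine 2 mM (red circles) and 20 mM (purple squares) for the genes changed at 2 mM and tested at both doses and the 10 named for the gap between doses (y axis). Bars are the SE from limma, and an asterisk marks genes whose time changes differed between the doses. NIP7 lies right of 0 at 2 mM and left of 0 at 20 mM, the HXT genes and GAL2 lie left of 0 at both, and HSP12 lies at 0 at 2 mM and at 3.24 at 20 mM.

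Against the wall-binding dyes at 0.02 mg/ml, the question was whether the time change of low-dose caffeine was shared by low doses of the other compounds. The doses are in different units, so only the responses were compared. The time change at 2 mM caffeine differed from the mean of both dyes in 122 of 4613 genes (2.64%) by limma, 66 with a higher value for caffeine (1.43%) and 56 with a lower one (1.21%). The split was 28 and 36 with arrays scaled to one spread and 53 and 29 without centring. The count was 3 without the block and 31 with replicate 1 at 15 min of caffeine turned. Leaving out an array leaves 1 in its condition, so no count of these fits is given here. Those counts moved with the caffeine or dye array left out. With replicate 1 or replicate 2 left out of all groups compared, all or nearly all genes named below for the highest and lowest gaps no longer passed. Alone, the time change passed in 25 of 4656 genes (0.537%) for calcofluor white and in 3 of 5317 genes (0.0564%) for congo red, ISY1, PIR3 and YNL058C. Of the dye arrays, 3 carry a label whose time or dose disagrees with the title, which was followed.

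The caffeine arrays again enter both comparisons. NIP7 had 0.998 for caffeine, −0.82 for calcofluor white and −0.46 for congo red, a gap of 1.64 ± 0.23 (limma adjusted p = 0.00125). CPA1 had 1.36, −0.42 and −0.30 in the same order, a gap of 1.73, and GAL2 −0.95, −0.25 and −0.11, a gap of −0.77. MNT4, SAS3, YAR1, CIR2, GCY1 and YOX1 passed as well. DIP5 did not pass, with a gap of −1.01 and a limma adjusted p of 0.0911, nor did MRPS5, with −0.58 and a limma adjusted p of 0.0948. HXT11, HXT12, HXT13 and YPL039W could not be tested for lack of values in calcofluor white.

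PIR3 encodes a wall protein with internal repeats. It had −0.53 and 0.041 at 90 min of caffeine, against 0.67 and 0.38 at 15 min, a difference of −0.77, while it stood at 1.94 for calcofluor white and 1.85 for congo red, and the gap was −2.67 ± 0.38 (limma adjusted p = 0.00125). It passed also without the block. HSP150, a related wall protein, had −1.80 for caffeine, 0.82 for calcofluor white and 1.26 for congo red, and a gap of −2.84 ± 0.77. Its caffeine difference was −2.995 in replicate 1 and −0.61 in replicate 2 (limma adjusted p = 0.14 for both together). DNF2, a phospholipid flippase (−2.05 ± 0.40), MOT2, a ubiquitin ligase of the Ccr4-Not complex (−1.74 ± 0.44), and MPF1 (−1.72 ± 0.41) had the other lowest gaps. The highest were those of YCL002C (2.42 ± 0.60), NAN1 (2.06 ± 0.54), AAH1, adenine deaminase (1.95 ± 0.43), SMC5 of the Smc5/6 complex (1.94 ± 0.50) and PHO3, an acid phosphatase (1.93 ± 0.37). None of these 10 genes passed for caffeine alone.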

How the data were processed

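The deposited values of the authors are natural log (ln) ratios of 15488 spots on 36 arrays, as read from the values, whose mean is 0 on each array. The scanner, background correction and normalization were not given in the sources used here. A gene name stands at 11872 spots, covering 5713 genes, all matched to the RefSeq gene table (assembly R64), and unnamed spots were not used. The most frequent value of each array was set to missing, and spots at it are called floored. Division by 0.6931 turned values into log2 ratios, spots of the same gene were averaged, and each array was centred on its median over genes (python 3.11.15, numpy 2.4.6, pandas 2.3.3, scipy 1.17.1).

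The fit used limma 3.58.1 (R 4.3.3) on the 36 arrays. Its terms were the 18 conditions and the dye, which left 17 residual degrees of freedom. The dye term equals the replicate number and is the replicate block. It was kept because the dye swap is stated and because same-numbered arrays deviated together in 153 of 153 pairs of conditions (r = 0.113 to 0.784, and 0.366 for 90 and 15 min of caffeine 2 mM). Genes needed a value on at least 24 arrays and on every array compared, and p-values were adjusted by Benjamini-Hochberg over them, at 0.05. The procedure was tested on simulated data.

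The named genes are up to 15 per direction that passed with the same sign in both orientations, filled to 10 a direction by smallest p, the 5 highest and 5 lowest of each difference between time changes, and up to 4 of smallest p per list. Genes past the threshold at 15 min and others named beyond this rule were chosen after their values were seen. The members, the rule and the 40 lists were chosen with earlier results of these data known. Alternatives are listed in the closing section.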

Additional observations from a re-analysis of the deposited data

Results flagged for a closer look

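For each gene here a test of the difference between 2 time changes passed by limma over all genes, and the value is the time change at caffeine 2 mM minus the other one, in log2. Against caffeine 20 mM the values were 2.89 for NAN1, 2.65 for GOT1, 2.63 for RPA135, 2.43 for UTP14, 2.29 for NOC3 and 2.02 for NIP7. They were 1.28 for HXT13, 1.54 for HXT12, 1.43 for GAL2 and 1.29 for HXT11. The lower ones were −4.60 for NQM1, −3.74 for MSW1, −3.65 for TUS1, −3.35 for APE1 and −3.34 for HSP12.

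Against the mean of both dyes at 0.02 mg/ml the values were 2.42 for YCL002C, 2.06 for NAN1, 1.95 for AAH1, 1.94 for SMC5 and 1.93 for PHO3. Among genes changed at caffeine 2 mM they were 1.73 for CPA1, 1.31 for MNT4, 1.64 for NIP7, 1.06 for SAS3 and 1.28 for YAR1. The lower ones were −2.84 for HSP150, −2.67 for PIR3, −2.05 for DNF2, −1.74 for MOT2 and −1.72 for MPF1, and, among changed genes, −1.14 for CIR2, −0.77 for GAL2, −0.97 for GCY1 and −0.83 for YOX1. No group has 4 or more arrays, so single arrays were not tested as outliers.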

How the results depend on the processing

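For the difference between 90 and 15 min at 2 mM the 15 calls became 0 when the replicate block was dropped, 38 when arrays were given equal spread (all 15 among them), 0 with the 12 caffeine arrays, 0 with the 6 arrays of 2 mM, 9 with genes measured on all arrays, 2 with array weights (GAL2 and YOX1), 36 without disagreeing spots (12 shared), 1 and 9 with the sign of replicate 1 turned at 15 min and at 5 min, and 8 to 370 without an array or replicate. Added after seeing the data, turning replicate 1 at 90 min gave 9 and treating values shared by many spots as missing gave 27. At 90 min the 0 calls became 11 to 35 without an array. At 15 min the 29 became 11 without the block, 0 with the 12 or the 6 caffeine arrays, 0 and 16 with replicate 1 turned at 15 and 5 min, and 18 without either array. The 322 differences between doses became 79 without the block, 2 with scaled arrays (OPI3 and PYC1), 3 with the 12 caffeine arrays (HSP12, NIP7 and PYC1), 141 with weights, 625 with replicate 1 at 15 min turned and 106 to 411 without an array or replicate. The 122 differences from the dyes became 3 without the block (ISY1, NIP7 and PIR3), 64 with scaled arrays, 262 with weights, 186 without disagreeing spots, 31 with replicate 1 at 15 min turned and 3 to 452 without an array or replicate. Genes of opposite sign were DIP5 (0.19), YOX1 (0.090) and MRPS5 (0.062) with replicate 1 at 15 min turned, MNT4 (−0.026), YOR342C (−0.048) and PRP8 (−0.036) with replicate 1 at 90 min turned, and SAS3 (−0.25), YOR342C (−0.098), PRP8 (−0.00016) and YPL039W (0.068) with 5 min arrays in place of 15 min ones. Of 20 alternatives at most, GAL2 passed in 11, CPA1, NIP7, YAR1, DIP5 and YOX1 in 9 each, and HXT11 and MRPS5 in 5. The cause of these changes was not tested, except that fewer arrays or genes enter some fits. Not centring and keeping floored spots left the first count within 1.5 times. It split as 4 higher and 9 lower without centring and as 6 and 5 with floored spots kept, against 5 and 10. With 5 min arrays it was 13, 10 higher and 3 lower, and 0 of the 15 genes were among them. Depth is not given in the sources used here, and other spots of low signal may remain.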
